A study of Mus musculus with 16 samples.

Results

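Fibroblast growth factors (FGFs), their receptors and the genes that FGF signalling switches on to restrain or relay itself were followed in mouse embryoid bodies, floating balls of differentiating embryonic stem cells. The 38 genes were taken by symbol from the 23282 named loci of the expression tables, and every symbol matched 1 locus. They comprise 18 secreted ligands, 4 intracellular FGF-homologous factors, 5 receptor genes, 9 feedback inhibitors and 2 ETS transcription factors. Of these, 33 had enough counts to be tested, and the other 5 (Fgf20, Fgf21, Fgf22, Fgf23 and Spry3) stayed at or under 0.221 CPM in every library.

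The embryoid bodies came from a mouse embryonic stem cell line with GFP knocked in at Rx, the eye field gene Rax. All groups were differentiated by SFEBq, a floating serum-free aggregate culture, in GMEM with 5% KSR, received 2% Matrigel on day 1, and were profiled on day 6. The T48h rescue and the T12h rescue were Wdr5 KO cells given doxycycline at the times labelled T48h and T12h to induce human WDR5. The KO was the same genotype without doxycycline, and WT was untreated. WDR5 is a subunit shared by the histone methyltransferase complexes of the COMPASS/MLL family. The series title names a single knockout clone, clone #3, so any other difference between that clone and WT enters every comparison with WT. The rescued cells carry a human, drug-induced WDR5, and no group had doxycycline without the transgene, so an effect of the drug itself cannot be told apart from that of WDR5.

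Each group had 2 biological duplicates, named a and b here with no order, and 2 technical runs of each were summed. The 8 libraries held 32476672 to 65687435 estimated fragment counts in named loci. Nothing states that the duplicates were separate cultures, so p-values reflect the spread from library to library, part of which may be technical. CPM express the counts of a gene relative to the scaled size of its library. A gene is said to be called, or to have risen or fallen, where the adjusted p of edgeR's quasi-likelihood test was under 0.05 over the 16130 genes tested. Wdr5 read 280 and 294 CPM in the T48h rescue, 329 and 337 in the T12h rescue, 32.5 and 28.4 in the KO and 186 and 187 in WT, so the labels of the knockout held, and reads of human WDR5 that aligned to the mouse gene would be counted in it. Rax read 0.545 and 0.245 CPM in the T48h rescue, 223 and 215 in the T12h rescue, 0.82 and 0.755 in the KO and 192 and 197 in WT.

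FGF signalling starts when a secreted ligand, with heparan sulfate as a cofactor, joins receptors of the tyrosine kinase type at the cell surface. The receptors act through the adaptor Frs2 and the Ras-ERK cascade, which raises ETS factors such as Etv4 and Etv5 and also the Sprouty, Spred and Dusp6 genes that restrain the same cascade. In the early mouse embryo FGF4 from the pluripotent epiblast drives exit from pluripotency, FGF8 guides gastrulation and patterns the head, and FGF signals help to set the neural retina apart from the pigment epithelium. Feedback genes and ETS factors are therefore widely read as a transcript record of the signal, while ligand and receptor transcripts describe who could send and receive it.

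Promoter sequences of the FGF genes are shown because the ETS factors of this set bind DNA at a core that can be searched for by letters. RefSeq promoters (build GRCm38.p6, 250 bases before to 50 bases after the start site) were used for 28 of the 38 genes, 36 promoters in all. Fgf1, Fgf8, Fgf15, Fgf16, Fgf17, Fgf20, Fgfr1, Spry3, Spry4 and Etv4 were not included. The promoter values below do not cover these genes. The 36 promoters had a median GC content of 62.7%, against 52.7% over all 32851 promoters of the table. Their median ratio of observed to expected CpG was 0.75, against 0.38. The ETS letters CCGGAA on either strand stood in 5 of the 36 (13.9%), beside 14.9% of all promoters. TATAAA stood in 3 (8.33%, beside 13.6%). The 4 below hold CCGGAA and belong to genes that moved in different directions. In each, capitals mark the letters found, CCGGAA or its reverse complement TTCCGG, and in Fgf5 also TATAAA. Counted from the start site, TATAAA of Fgf5 begins at 34 and CCGGAA of Spry2 at 33, both downstream of it. The other matches shown begin at -241 (Fgf5), -178 (Fgfr4) and -48 (Fgfrl1).
Fgf5 promoter, chr5:98253934-98254233, plus strand: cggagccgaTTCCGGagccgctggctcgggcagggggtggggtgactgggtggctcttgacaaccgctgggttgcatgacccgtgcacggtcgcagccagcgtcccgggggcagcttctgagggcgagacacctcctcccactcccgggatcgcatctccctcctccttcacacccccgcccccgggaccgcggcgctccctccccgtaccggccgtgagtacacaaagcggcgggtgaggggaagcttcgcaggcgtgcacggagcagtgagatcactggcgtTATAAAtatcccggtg
Fgfr4 promoter, chr13:55152568-55152867, plus strand: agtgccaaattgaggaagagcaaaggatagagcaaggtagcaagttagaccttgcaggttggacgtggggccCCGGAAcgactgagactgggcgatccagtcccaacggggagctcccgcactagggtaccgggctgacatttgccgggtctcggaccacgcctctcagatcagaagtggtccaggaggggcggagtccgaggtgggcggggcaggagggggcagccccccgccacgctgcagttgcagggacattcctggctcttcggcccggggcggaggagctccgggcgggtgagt
Fgfrl1 promoter, chr5:108693979-108694278, plus strand: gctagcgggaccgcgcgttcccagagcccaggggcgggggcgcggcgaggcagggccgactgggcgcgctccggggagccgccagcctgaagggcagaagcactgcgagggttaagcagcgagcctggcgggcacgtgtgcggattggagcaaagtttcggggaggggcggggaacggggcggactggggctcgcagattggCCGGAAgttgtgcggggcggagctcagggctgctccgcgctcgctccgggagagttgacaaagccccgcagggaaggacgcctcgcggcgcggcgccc
Spry2 promoter, chr14:105896770-105897069, minus strand: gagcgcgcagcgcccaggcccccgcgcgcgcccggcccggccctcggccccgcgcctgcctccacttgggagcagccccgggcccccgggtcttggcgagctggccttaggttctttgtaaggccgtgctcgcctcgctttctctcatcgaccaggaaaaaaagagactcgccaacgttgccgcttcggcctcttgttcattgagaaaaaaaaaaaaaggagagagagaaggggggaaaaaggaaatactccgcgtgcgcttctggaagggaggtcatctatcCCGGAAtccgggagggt
A match of letters is a description of the window and does not show that a factor binds there. Among the promoters used, the share with CCGGAA lay near that of all promoters. The median CpG ratio lay above that of all promoters, and single promoters lay on both sides of it.

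In the KO, most of the secreted ligands tested, Fgfr4 and both ETS factors stood above WT. The ligands Fgf9 and Fgf15 stood below it, as did Fgf13, Fgfrl1 and Spry1. The calls of Fgf16, Fgf17 and Fgf18 as higher were fragile, as given below. Of the 33 genes tested, 17 rose, 10 fell and 6 were not called in the KO against WT. Calls were common across all genes too, with 64.1% called, 31.7% higher and 32.4% lower. The changes of the FGF genes were larger than those of all genes: 19 of the 33 were called with at least a 2-fold change, beside 33.6% of all genes, and the median absolute log2 fold change was 1.79, beside 0.75. The 19 include Fgf16, Fgf17 and Fgf18. The 2-fold rule was added after seeing the data and the genes were chosen with earlier results known, so this contrast is a description and not a test. The median log2 fold change was 0.70, beside 0.004 over all genes. In bulk samples such as these, fewer cells of a type and less RNA per cell cannot be told apart.

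Most FGF genes that were called in the rescues against the KO stood lower in the rescues. The T48h rescue had 6 of the 33 genes higher, 18 lower and 9 not called, beside 67.3% of all genes called, 34.2% higher and 33.2% lower. Calls of at least 2-fold numbered 17, beside 36.8% of all genes, and the median log2 fold change was -0.69, beside -0.003. The T12h rescue had 7 higher, 16 lower and 10 not called, beside 64.8% of all genes called, 32.8% higher and 32.1% lower. Here 22 calls were at least 2-fold, beside 34.6% of all genes, with a median log2 fold change of -1.25, beside -0.009. These comparisons share the KO libraries with that of KO and WT, so an opposite sign between them is in part a consequence of the shared values.

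Both rescues differed from WT in part of the FGF genes. Against WT, the T48h rescue had 5 of the 33 higher, 14 lower and 14 not called, beside 47.3% of all genes called, 23.9% higher and 23.4% lower, and 15 calls were at least 2-fold, beside 21.9%. The T12h rescue had 3 higher, 14 lower and 16 not called. Over all genes only 14.0% were called in the T12h rescue against WT, 7.90% higher and 6.11% lower, and 9 FGF genes were called with at least a 2-fold change, beside 3.32% of all genes. These all-gene shares, from 1275 genes called higher and 986 called lower, moved when 1 library was left out. Fewer genes were called higher whichever WT or T12h library was left out. Fewer were called lower without WT replicate a or either T12h replicate. Such a fit leaves 1 library in a group, and the cause of the fall was not tested. The FGF genes called numbered 2 to 3 higher and 11 to 14 lower with 1 library left out. The FGF genes' median log2 fold change was -0.60, beside -0.003. The T48h rescue against the T12h rescue had 14 of the 33 higher, 10 lower and 9 not called, beside 50.2% of all genes called, 24.9% higher and 25.3% lower, and 16 calls were at least 2-fold, beside 22.9%.

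**Figure D1:**
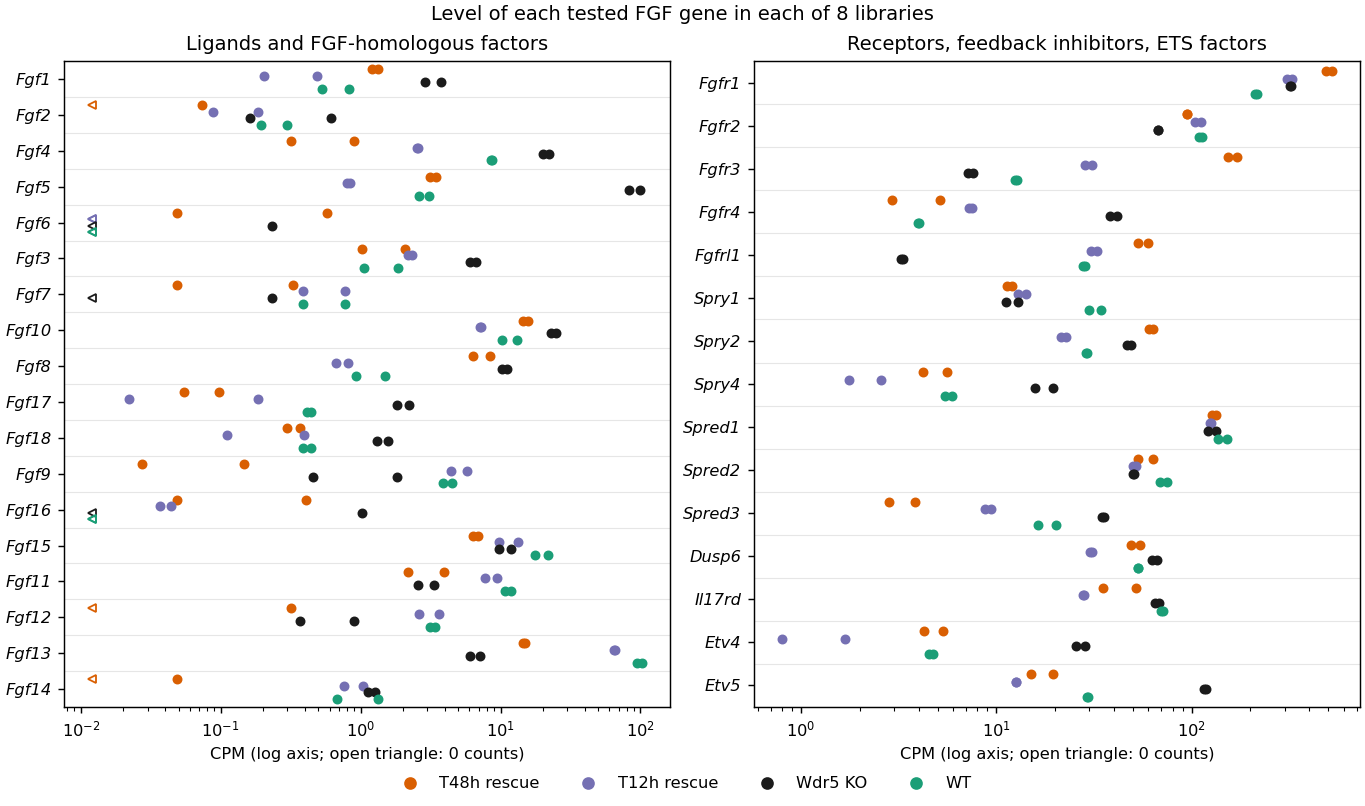
Level of each of the 33 tested FGF genes (rows) in each of the 8 libraries, in CPM on a log axis, with 2 points per group and open triangles for libraries with 0 counts. The KO points lie to the right of all others for Fgf5, Fgfr4, Etv4 and Etv5 and to the left for Fgf13 and Fgfrl1, and the T48h rescue points stand furthest right for Fgfr1 and Fgfr3.

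The group in which a gene stood highest varied among the genes. In 14 of the 33 genes both KO libraries lay above all others: Fgf1, Fgf3, Fgf4, Fgf5, Fgf8, Fgf10, Fgf17, Fgf18, Fgfr4, Spry4, Spred3, Dusp6, Etv4 and Etv5. Both T48h rescue libraries lay above all others in 4, namely Fgfr1, Fgfr3, Fgfrl1 and Spry2. Both WT libraries did so in 7, namely Fgf11, Fgf13, Fgf15, Spry1, Spred1, Spred2 and Il17rd. At the low end, the T12h rescue lay below all others in 10 genes, among them Fgf5, Fgf8, Fgf10, Spry2, Spry4, Dusp6, Il17rd, Etv4 and Etv5. The share of all genes with groups apart in this way was not counted. These counts therefore describe the FGF genes and do not set them apart from other genes.

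The ligands Fgf5 and Fgf4, of the FGF4 subfamily, rose in the KO. Fgf5 (chr5:98254184-98277030, mm10) encodes a ligand of the epiblast as it leaves naive pluripotency. It read 3.46 and 3.14 CPM in the T48h rescue, 0.796 and 0.837 in the T12h rescue, 98.6 and 82.4 in the KO and 2.63 and 3.09 in WT. The KO libraries stood apart from all others by more than an order of magnitude, and the T12h rescue lay below every other group. The log2 fold change of the KO over WT was 4.98 ± 0.17 (edgeR adjusted p = 4.96e-11), that of the T48h rescue over the KO was -4.78 ± 0.16 (edgeR adjusted p = 4.56e-11) and that of the T12h rescue over the KO was -6.79 ± 0.19 (edgeR adjusted p = 9.18e-12). Against WT, the T12h rescue was lower, with -1.81 ± 0.20 (edgeR adjusted p = 8.34e-05). The T48h rescue did not differ from WT beyond the spread, at 0.21 ± 0.17 (edgeR adjusted p = 0.359).

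Fgf4 (chr7:144861386-144865243), the autocrine ligand of pluripotent cells, read 0.899 and 0.319 CPM in the T48h rescue, 2.54 and 2.58 in the T12h rescue, 22.1 and 20 in the KO and 8.74 and 8.58 in WT. The order was KO, WT, T12h rescue and T48h rescue, with no overlap between groups. In log2 fold change, the KO over WT gave 1.28 ± 0.26 (edgeR adjusted p = 0.00082). Against WT the T48h rescue gave -3.85 ± 0.33 (edgeR adjusted p = 5.66e-07) and the T12h rescue -1.76 ± 0.28 (edgeR adjusted p = 0.000999), so both rescues fell below WT in this ligand. Without T48h rescue replicate a, the T48h value against WT was -4.78 and the call remained. Fgf6, the third gene of the subfamily and a muscle ligand, had counts in no more than 1 library outside the T48h rescue and never passed 1 CPM. Its call between the rescues was lost without any single WT or T12h library or T48h replicate a (adjusted p between 0.0384 and 0.383 over the alternatives).

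All 3 genes of the FGF8 subfamily were called higher in the KO against WT, beside 31.7% of all genes. The calls of Fgf17 and Fgf18 were fragile, as given below. Fgf8 (chr19:45736766-45742884), the ligand of the primitive streak, the anterior neural ridge and the isthmus, read 8.39 and 6.35 CPM in the T48h rescue, 0.666 and 0.815 in the T12h rescue, 10.3 and 11.2 in the KO and 1.5 and 0.92 in WT. The KO and the T48h rescue were both high, and the T12h rescue and WT were both low. Relative to WT, the KO gave a log2 change of 3.14 ± 0.31 (edgeR adjusted p = 1.25e-06) and the T12h rescue over the KO gave -3.86 ± 0.32 (edgeR adjusted p = 2.26e-07). Fgf8 thus separated the rescues, with 3.31 ± 0.32 (edgeR adjusted p = 1.52e-06) for the T48h rescue over the T12h rescue. On the log2 scale, the T48h rescue over the KO gave -0.54 ± 0.27 (edgeR adjusted p = 0.0933), which missed the threshold, although 5 of 19 alternatives called it lower with log2 fold changes between -0.69 and -0.56.

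Fgf17 and Fgf18, which share the receptors of Fgf8, were low throughout. Fgf17 read 0.0545 and 0.098 CPM in the T48h rescue, 0.185 and 0.022 in the T12h rescue, 2.23 and 1.81 in the KO and 0.444 and 0.415 in WT. Fgf18 read 0.3 and 0.368 CPM in the T48h rescue, 0.111 and 0.397 in the T12h rescue, 1.57 and 1.32 in the KO and 0.388 and 0.445 in WT. Against WT, the KO gave a log2 change of 2.23 ± 0.76 (edgeR adjusted p = 0.0214) in Fgf17 and 1.79 ± 0.74 (edgeR adjusted p = 0.0487) in Fgf18. Both calls are fragile: that of Fgf17 was lost without WT replicate a, WT replicate b or KO replicate a, with log2 fold changes of 2.05 to 2.35 and adjusted p between 0.000176 and 0.129. That of Fgf18 was lost in 8 of 19 alternatives, among them the removal of any single WT or KO library, with log2 fold changes of 1.65 to 1.89 and adjusted p between 0.00102 and 0.217.

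Fgf3 and Fgf10 signal between epithelium and mesenchyme in many organs. Fgf3 (chr7:144838612-144843950) read 1.03 and 2.08 CPM in the T48h rescue, 2.2 and 2.34 in the T12h rescue, 6.03 and 6.64 in the KO and 1.05 and 1.84 in WT. The KO stood above the other groups, which lay close together. By edgeR's test, the KO over WT gave a log2 change of 2.13 ± 0.41 (edgeR adjusted p = 0.000485), and neither rescue differed from WT beyond the spread. Fgf10 (chr13:118714699-118792573), a ligand of limb, lung and heart field mesoderm, read 14.5 and 15.6 CPM in the T48h rescue, 7.11 and 7.23 in the T12h rescue, 22.8 and 24.8 in the KO and 10.2 and 13.1 in WT. The KO was highest and the T12h rescue lowest. With WT as the base, the KO gave a log2 change of 1.04 ± 0.17 (edgeR adjusted p = 0.000107) and the T48h rescue over the T12h rescue gave 1.07 ± 0.17 (edgeR adjusted p = 0.000142). The T12h rescue against WT gave -0.70 ± 0.17 (edgeR adjusted p = 0.0148), which lost its call without WT replicate b (-0.51), T12h replicate a (-0.69) or T12h replicate b (-0.71). The call was also lost in all alternatives with limma on FPKM, with -0.65 to -0.44 on their scales (limma adjusted p of 0.0504 to 0.0894). Fgf7, a ligand for epithelia, stayed under 1 CPM and was called in no comparison.

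Fgf3, Fgf4 and Fgf15 lie side by side on chromosome 7, between positions 144838612 and 144900951, and they did not move together. Fgf15 (chr7:144896532-144900951), the mouse counterpart of human FGF19 and a gene of the embryonic forebrain, midbrain and retina, read 6.94 and 6.4 CPM in the T48h rescue, 13.3 and 9.83 in the T12h rescue, 11.8 and 9.69 in the KO and 17.7 and 21.9 in WT. WT was highest and the T48h rescue lowest. The KO over WT gave -0.88 ± 0.20 (edgeR adjusted p = 0.00158) and the T48h rescue over WT gave -1.57 ± 0.20 (edgeR adjusted p = 2.85e-05). As a log2 fold change, the T12h rescue over WT gave -0.77 ± 0.20 (edgeR adjusted p = 0.0191), and its call was lost without WT replicate b (-0.62) or T12h replicate b (-0.57). The call was also lost with limma on log2(FPKM + 1) without a filter (-0.69 on that scale, limma adjusted p = 0.0679). Between the rescues, the T48h over the T12h rescue gave -0.80 ± 0.20 (edgeR adjusted p = 0.00514), lost without T12h replicate a (-0.61, adjusted p = 0.0558 by edgeR). In this cluster the KO thus had higher Fgf3 and Fgf4 and lower Fgf15 than WT.

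Fgf9 (chr14:58072686-58112720), a ligand expressed in the distal optic vesicle where neural retina forms, read 0.0272 and 0.147 CPM in the T48h rescue, 5.74 and 4.41 in the T12h rescue, 0.454 and 1.81 in the KO and 3.88 and 4.51 in WT. WT and the T12h rescue overlapped, the KO was lower and the T48h rescue held 1 count in replicate a. Compared with WT, the KO gave a log2 change of -1.94 ± 0.56 (edgeR adjusted p = 0.00835), between -3.21 without KO replicate b and -1.23 without KO replicate a. The rescues moved it in opposite directions, with -3.57 ± 0.77 (edgeR adjusted p = 0.00115) for the T48h rescue over the KO and 2.21 ± 0.56 (edgeR adjusted p = 0.0036) for the T12h rescue over the KO. The T48h value ranged from -5.17 without T48h replicate b to -2.29 without KO replicate b, and its call was lost with limma on log2(FPKM + 1), at -0.29 on that scale, with adjusted p between 1.61e-09 and 0.11 over the alternatives. The T12h value was 3.49 without KO replicate b and 1.50 without KO replicate a. Fgf16, of the same subfamily, was called higher in the KO through KO replicate b alone, at 1.03 CPM, while KO replicate a and both WT libraries had 0 counts, so no fold is given.

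Of the FGF1 subfamily, whose ligands leave the cell without a signal peptide, Fgf1 rose in the KO. It read 1.33 and 1.2 CPM in the T48h rescue, 0.204 and 0.485 in the T12h rescue, 3.75 and 2.91 in the KO and 0.832 and 0.534 in WT. In log2 fold change, the KO over WT gave 2.28 ± 0.53 (edgeR adjusted p = 0.0022), and no rescue differed from WT beyond the spread. Relative to the KO, the T48h rescue gave a log2 change of -1.39 ± 0.51 (edgeR adjusted p = 0.027), lost without KO replicate a (-1.24), T48h replicate a (-1.50) or T48h replicate b (-1.32), with adjusted p between 0.00141 and 0.11 over the alternatives. On the log2 scale, the T48h rescue over the T12h rescue gave 1.89 ± 0.55 (edgeR adjusted p = 0.0122), lost without T12h replicate a (1.33). It was also lost with limma on log2(FPKM + 1) (0.25 on that scale, limma adjusted p = 0.0507). Fgf2 did not exceed 0.615 CPM in any library and its single call, lower in the T48h rescue than in the KO, was lost in 9 of 17 alternatives (adjusted p between 0.0181 and 0.331).

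Levels per transcript length show which ligand transcripts dominated each group. Summed over the 18 secreted ligands, the level was 17.2 and 15.7 FPKM in the T48h rescue, 13.4 and 11.9 in the T12h rescue, 73.8 and 65.7 in the KO and 18.8 and 21.7 in WT. Fgf5 made up 50.4% and 47.4% of the KO sum. Fgf8 came first in the T48h rescue, with 43.6% and 36.6%, ahead of Fgf15 and Fgf10. Fgf15 came first in the T12h rescue, with 50.8% and 42.2%, and in WT, with 48.4% and 51.4%.

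**Figure D2:**
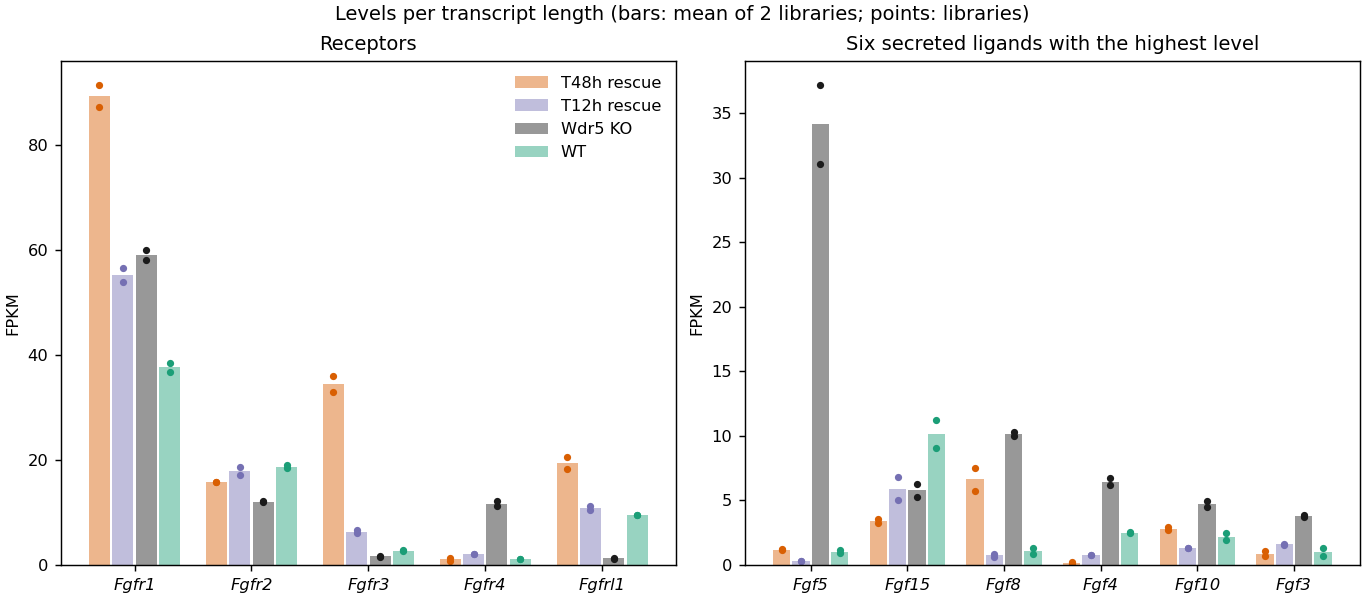
FPKM, a level per transcript length, of the 5 receptor genes (left) and of the 6 secreted ligands with the highest levels (right), as bars for the mean of 2 libraries and points for each library. Fgfr1 is the tallest receptor bar in every group, Fgfr3 reaches that scale only in the T48h rescue, and Fgf5 in the KO exceeds every other ligand bar.

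The intracellular FGF-homologous factors are not secreted, do not act as ligands in the usual sense and are known as partners of voltage-gated sodium channels in neurons. Fgf13 (chrX:59062145-59250963) also binds microtubules, and read 14.6 and 15 CPM in the T48h rescue, 65.3 and 64.6 in the T12h rescue, 7.19 and 6.04 in the KO and 103 and 93.9 in WT. The locus measured does not reach RefSeq promoters 1 and 2 of Fgf13, at chrX:59585523-59585822 and chrX:59567299-59567598. Exons outside the locus are not counted in these values. The order was WT, T12h rescue, T48h rescue and KO, with no overlap. Against WT, the KO gave a log2 change of -3.88 ± 0.12 (edgeR adjusted p = 2.49e-11), among the smallest p-values of the gene set. By edgeR's test, the T12h rescue over the KO gave a log2 change of 3.28 ± 0.12 (edgeR adjusted p = 6.49e-11) and still lay below WT, at -0.60 ± 0.10 (edgeR adjusted p = 0.00159). With the KO as the base, the T48h rescue gave a log2 change of 1.15 ± 0.12 (edgeR adjusted p = 1.36e-06).

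Fgf11 (chr11:69796115-69801679) split the groups in pairs. It read 2.18 and 3.95 CPM in the T48h rescue, 9.38 and 7.73 in the T12h rescue, 2.58 and 3.32 in the KO and 10.7 and 11.8 in WT. The T12h rescue and WT were high and the T48h rescue and KO were low. The KO over WT gave -1.93 ± 0.29 (edgeR adjusted p = 5.61e-05), and the T48h rescue over the T12h rescue gave -1.48 ± 0.28 (edgeR adjusted p = 0.000759). Fgf12 read 0 and 0.319 CPM in the T48h rescue, 2.63 and 3.66 in the T12h rescue, 0.366 and 0.89 in the KO and 3.11 and 3.38 in WT, with the same split. Its value for the KO over WT was -2.41 ± 0.72 (edgeR adjusted p = 0.0105) and was lost without KO replicate a (-1.87), with adjusted p between 7.39e-06 and 0.0516 over the alternatives. Fgf14 read 0 and 0.049 CPM in the T48h rescue, 0.759 and 1.04 in the T12h rescue, 1.13 and 1.27 in the KO and 1.33 and 0.683 in WT, and the T48h rescue was called lower than every other group on at most 2 counts a library.

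**Figure D3:**
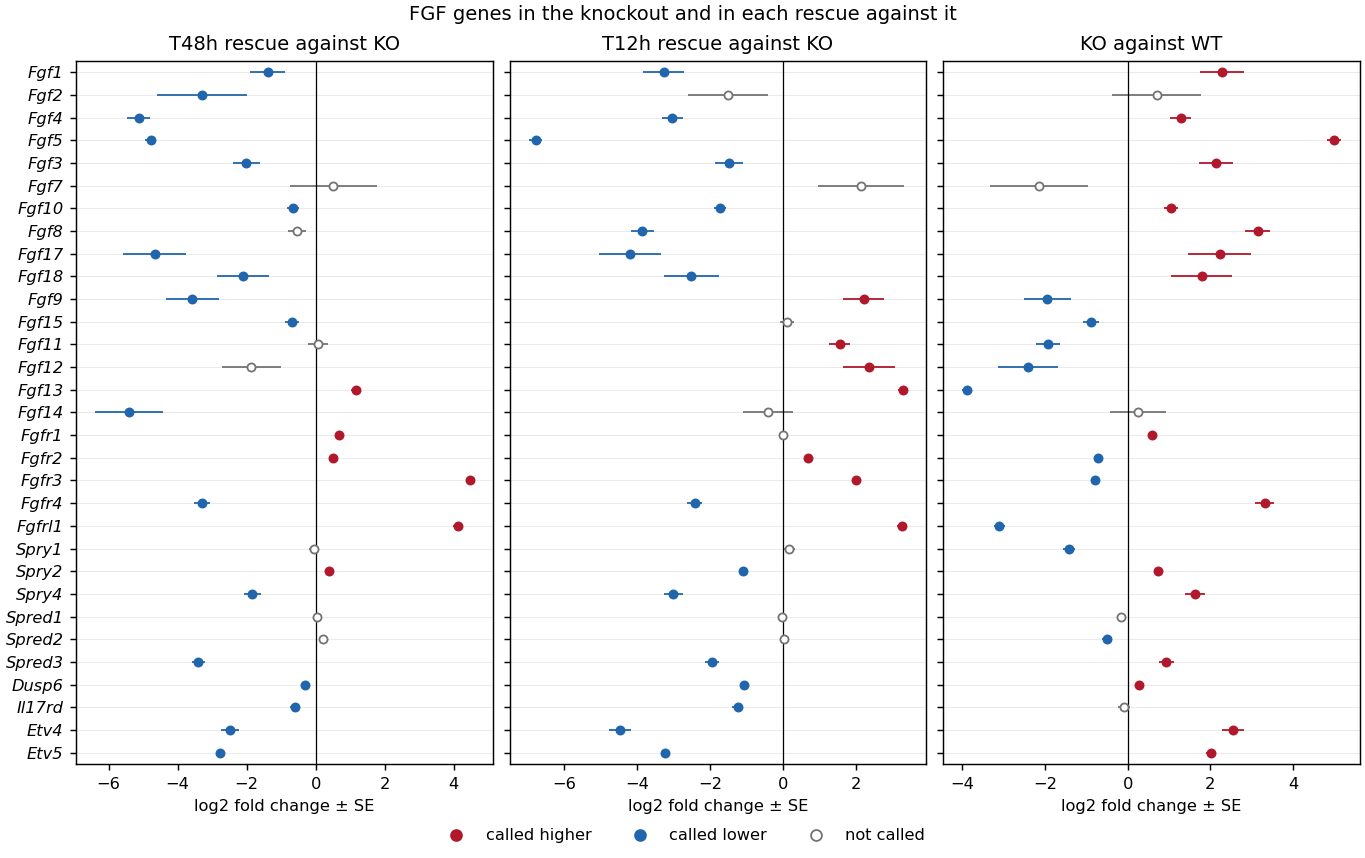
Log2 fold changes ± SE of 31 FGF genes for the T48h rescue over the KO, the T12h rescue over the KO and the KO over WT, filled red where called higher, filled blue where called lower and open where not called; Fgf6 and Fgf16, at 0 counts in whole groups, are left out. Ligands of the FGF4 and FGF8 subfamilies, Etv4 and Etv5 lie right of 0 in the KO over WT and left of 0 in both rescues over the KO, where Fgf8 in the T48h rescue was not called, and Fgfr3 and Fgfrl1 lie the other way.

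The receptors shifted among themselves. Fgfr1 (chr8:25518772-25575885), the main receptor of pluripotent and mesodermal cells, read 490 and 524 CPM in the T48h rescue, 328 and 309 in the T12h rescue, 321 and 320 in the KO and 217 and 212 in WT. WT was lowest and the T48h rescue highest. As a log2 fold change, the T48h rescue over WT gave 1.24 ± 0.07 (edgeR adjusted p = 5.06e-09), the T12h rescue over WT gave 0.57 ± 0.07 (edgeR adjusted p = 0.00011) and the KO over WT gave 0.58 ± 0.07 (edgeR adjusted p = 5.45e-06). Fgfr1 lies on chromosome 8, where 852 tested genes had a median log2 fold change of 0.49 in the KO over WT, beside -0.02 for the other chromosomes. The chromosome's median was 0.39 in the T48h rescue and 0.49 in the T12h rescue over WT. Fgfr1 stood 0.10 above that median in the KO, 0.09 above it in the T12h rescue and 0.85 above it in the T48h rescue. A change of the whole chromosome and a change of this gene cannot be told apart in the KO and the T12h rescue against WT. The rise of the T48h rescue over the KO, 0.66 ± 0.07 (edgeR adjusted p = 1.33e-06), was seen between groups of the same clone, where the chromosome's median was -0.08.

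**Figure D4:**
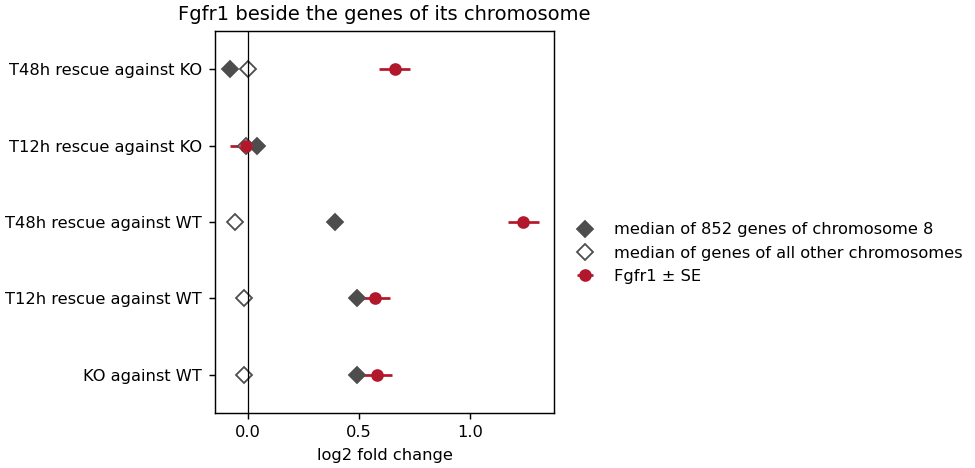
Log2 fold change of Fgfr1 (± SE) beside the median of 852 genes of chromosome 8 and the median of the genes of the other chromosomes, for 5 comparisons. Fgfr1 lies close to its chromosome's median in the KO and the T12h rescue against WT, and 0.85 and 0.75 above it in the T48h rescue against WT and KO.

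Fgfr2 (chr7:130162451-130266808), a receptor of epithelia, read 94.3 and 94.8 CPM in the T48h rescue, 112 and 104 in the T12h rescue, 67.6 and 67.2 in the KO and 109 and 113 in WT. It fell in the KO, with -0.72 ± 0.08 (edgeR adjusted p = 2.11e-06), and rose in the T48h rescue over the KO, with 0.49 ± 0.08 (edgeR adjusted p = 7.25e-05), and in the T12h rescue over the KO, with 0.68 ± 0.08 (edgeR adjusted p = 3.52e-06). Its small differences between the T48h rescue and WT (-0.24 ± 0.07) and between the rescues (-0.19 ± 0.07) were called but were lost in 2 and 11 of 19 alternatives, with adjusted p between 0.00139 and 0.0572 and between 0.00713 and 0.151. The difference from WT was lost without WT replicate b (-0.26) or T48h replicate b (-0.25). The difference between the rescues was lost without KO replicate b (-0.20), T12h replicate a (-0.19), T48h replicate a (-0.22) or T48h replicate b (-0.21).

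Fgfr3 (chr5:33721724-33737068), a receptor of cartilage and of the neural tube, read 154 and 171 CPM in the T48h rescue, 30.9 and 28.4 in the T12h rescue, 7.13 and 7.63 in the KO and 12.8 and 12.5 in WT. The groups followed the order T48h rescue, T12h rescue, WT and KO without overlap. Compared with the KO, the T48h rescue gave a log2 change of 4.46 ± 0.11 (edgeR adjusted p = 4.4e-12), over WT 3.68 ± 0.11 (edgeR adjusted p = 1.14e-11) and over the T12h rescue 2.45 ± 0.10 (edgeR adjusted p = 2.09e-10). In log2 fold change, the T12h rescue over WT gave 1.23 ± 0.10 (edgeR adjusted p = 1.11e-05). Relative to WT, the KO gave a log2 change of -0.78 ± 0.11 (edgeR adjusted p = 3.07e-05).

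Fgfr4 (chr13:55152818-55168759), a receptor of endoderm and of early embryonic cells whose promoter is shown above, read 2.91 and 5.12 CPM in the T48h rescue, 7.27 and 7.53 in the T12h rescue, 41.5 and 38.1 in the KO and 3.99 and 4.04 in WT. The KO stood apart from the other groups. On the log2 scale, the KO over WT gave 3.31 ± 0.23 (edgeR adjusted p = 4.14e-08), the T48h rescue over the KO -3.30 ± 0.23 (edgeR adjusted p = 3.21e-08) and the T12h rescue over the KO -2.43 ± 0.21 (edgeR adjusted p = 4.29e-07). Against WT, the T12h rescue gave a log2 change of 0.88 ± 0.22 (edgeR adjusted p = 0.0186). Its call was lost without any single WT or T12h library, with log2 fold changes of 0.85 to 0.90. It was also lost in all alternatives with limma on FPKM, with 0.53 to 0.83 on their scales (limma adjusted p of 0.0646 to 0.102).

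Fgfrl1 (chr5:108694229-108706950) encodes a receptor that lacks the kinase domain. It read 53.2 and 60.1 CPM in the T48h rescue, 32.7 and 30.4 in the T12h rescue, 3.25 and 3.32 in the KO and 27.7 and 28.5 in WT. The KO was lowest and the T48h rescue highest. By edgeR's test, the KO over WT gave a log2 change of -3.10 ± 0.13 (edgeR adjusted p = 4.96e-10), the T48h rescue over the KO 4.11 ± 0.14 (edgeR adjusted p = 3.88e-11) and the T12h rescue over the KO 3.26 ± 0.13 (edgeR adjusted p = 2.74e-10). The T12h rescue did not differ from WT beyond the spread, at 0.17 ± 0.12 (edgeR adjusted p = 0.398). Fgfr4 and Fgfrl1 hold the same ETS letters in the promoters shown, and they moved in opposite directions in the KO.

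Per transcript length, Fgfr1 was the first of the 4 kinase receptors in all 8 libraries, with 61.5% to 70.5% of their summed FPKM. Fgfr2 came second in the T12h rescue (22.3% and 21.7%) and in WT (30.2% and 32.1%). In the T48h rescue Fgfr3 came second, with 24.1% and 24.9%, against 7.84% and 7.68% in the T12h rescue, 1.92% and 2.07% in the KO and 4.57% and 4.5% in WT. Fgfr4 took 14.5% and 13.2% in the KO, about as much as Fgfr2 there (14.3% and 14.2%), and 1.83% and 1.88% in WT. The summed level was 137 and 145 FPKM in the T48h rescue, 83.9 and 79.4 in the T12h rescue, 83.8 and 85.2 in the KO and 60.9 and 59.6 in WT.

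The ETS factors, the transcription factors most used as a readout of FGF signalling, were high in the KO. Etv4 (chr11:101769742-101785310) read 4.28 and 5.32 CPM in the T48h rescue, 0.796 and 1.67 in the T12h rescue, 28.3 and 25.7 in the KO and 4.52 and 4.75 in WT. The KO was highest, the T12h rescue lowest, and the T48h rescue overlapped WT. With WT as the base, the KO gave a log2 change of 2.54 ± 0.27 (edgeR adjusted p = 2.13e-06). The T12h rescue over WT gave -1.92 ± 0.29 (edgeR adjusted p = 0.000701), or -2.54 without T12h replicate b, and the T48h rescue over WT gave 0.05 ± 0.27 (edgeR adjusted p = 0.896). Etv5 (chr16:22381313-22439570) read 15 and 19.6 CPM in the T48h rescue, 12.6 and 12.6 in the T12h rescue, 119 and 116 in the KO and 29.2 and 29.5 in WT. The order was KO, WT, T48h rescue and T12h rescue. As a log2 fold change, the KO over WT gave 2.01 ± 0.12 (edgeR adjusted p = 9.59e-09), the T48h rescue over WT -0.76 ± 0.12 (edgeR adjusted p = 0.000179) and the T12h rescue over WT -1.22 ± 0.12 (edgeR adjusted p = 4.43e-05). Compared with the T12h rescue, the T48h rescue gave a log2 change of 0.46 ± 0.12 (edgeR adjusted p = 0.00736). Its call was lost without T12h replicate a (0.42), T12h replicate b (0.41) or T48h replicate b (0.24). It was also lost with limma on log2(FPKM + 1) without a filter (0.34 on that scale, limma adjusted p = 0.0543).

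Of the 8 feedback inhibitors tested, 4 rose, 2 fell and 2 were not called in the KO against WT, beside 31.7% of all genes higher and 32.4% lower. In the T12h rescue against WT 7 of the 8 fell and none rose, beside 6.11% of all genes lower and 7.90% higher. Spry4, which blocks Ras-ERK signalling downstream of receptor tyrosine kinases, read 4.22 and 5.56 CPM in the T48h rescue, 2.57 and 1.76 in the T12h rescue, 15.7 and 19.4 in the KO and 5.49 and 5.91 in WT. The KO was highest and the T12h rescue lowest, and the T48h rescue overlapped WT. In log2 fold change, the KO over WT gave 1.62 ± 0.24 (edgeR adjusted p = 5.67e-05), the T48h rescue over the KO -1.84 ± 0.24 (edgeR adjusted p = 1.72e-05) and the T12h rescue over WT -1.39 ± 0.25 (edgeR adjusted p = 0.00249). The last was lost with limma on log2(FPKM + 1) without a filter (-0.56), with adjusted p between 2.32e-06 and 0.0554 over the alternatives.

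The Sprouty genes differed from one another. Spry1, at 12 and 11.3 CPM in the T48h rescue, 14.2 and 12.9 in the T12h rescue, 11.2 and 12.9 in the KO and 34.5 and 29.9 in WT, was high in WT alone. Relative to WT, the KO gave a log2 change of -1.42 ± 0.15 (edgeR adjusted p = 2.96e-06), and neither rescue changed it from the KO beyond the spread. Spry2 (chr14:105891947-105896819), whose promoter is shown above, read 63.1 and 60.7 CPM in the T48h rescue, 22.8 and 21.5 in the T12h rescue, 48.8 and 46.6 in the KO and 29 and 28.7 in WT. The T48h rescue was highest, then the KO, WT and the T12h rescue. On the log2 scale, the KO over WT gave 0.73 ± 0.10 (edgeR adjusted p = 2.68e-05). The rescues moved it in opposite directions from the KO, with 0.37 ± 0.10 (edgeR adjusted p = 0.00408) at T48h and -1.11 ± 0.10 (edgeR adjusted p = 4.96e-07) at T12h. The T12h rescue over WT, -0.38 ± 0.10, was called but was lost without any single WT or T12h library, with log2 fold changes of -0.43 to -0.34. It was also lost with the first technical column of each library alone (-0.35, edgeR adjusted p = 0.0535).

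Spred3 (chr7:29158829-29168647), of the Sprouty-related inhibitors, read 2.81 and 3.85 CPM in the T48h rescue, 9.42 and 8.77 in the T12h rescue, 34.8 and 35.6 in the KO and 20.2 and 16.3 in WT. The order was KO, WT, T12h rescue and T48h rescue without overlap. Against WT, the KO gave a log2 change of 0.94 ± 0.17 (edgeR adjusted p = 0.000301) and the T48h rescue over the KO gave -3.40 ± 0.19 (edgeR adjusted p = 4.76e-09). Spred1 lay between 122 and 151 CPM in all 8 libraries and was called in no comparison. Spred2 was high in WT, at 75.1 and 68.6 CPM, and between 50.2 and 63.8 CPM in the other 6 libraries. By edgeR's test, the KO over WT gave a log2 change of -0.51 ± 0.10 (edgeR adjusted p = 0.000628) in Spred2. Its lower values in the T48h rescue (-0.30 ± 0.10) and in the T12h rescue (-0.49 ± 0.10) against WT were called. Both calls were lost without WT replicate a (-0.28 and -0.43) or the rescue's own replicate a (-0.20 and -0.48). That of the T48h rescue was also lost in all alternatives with limma on FPKM, with -0.25 to -0.24 on their scales (limma adjusted p of 0.0656 to 0.0762).

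Dusp6 (chr10:99263231-99267489), the ERK phosphatase that is a direct gauge of the pathway in many embryos, read 48.9 and 54.2 CPM in the T48h rescue, 30.3 and 31 in the T12h rescue, 62.5 and 66.6 in the KO and 52.9 and 53 in WT. The KO was highest and the T12h rescue lowest. With WT as the base, the KO gave a log2 change of 0.28 ± 0.09 (edgeR adjusted p = 0.017), a small rise that was lost without WT replicate a (0.28), WT replicate b (0.26) or KO replicate b (0.23), with adjusted p between 0.0037 and 0.126. The T12h rescue over the KO gave -1.07 ± 0.09 (edgeR adjusted p = 3.99e-07) and over WT -0.79 ± 0.09 (edgeR adjusted p = 0.000139). As a log2 fold change, the T48h rescue over the KO gave -0.32 ± 0.09 (edgeR adjusted p = 0.00765), lost without KO replicate b (-0.27), with adjusted p between 0.000611 and 0.0674. Il17rd, also called Sef, an inhibitor at the membrane, read 35.3 and 52 CPM in the T48h rescue, 27.8 and 28.2 in the T12h rescue, 67.8 and 65.3 in the KO and 71.5 and 69.9 in WT. It did not differ between KO and WT beyond the spread, at -0.09 ± 0.14 (edgeR adjusted p = 0.596), and it fell in both rescues against WT, with -0.70 ± 0.14 (edgeR adjusted p = 0.00112) in the T48h rescue and -1.34 ± 0.14 (edgeR adjusted p = 6.69e-05) in the T12h rescue. Its higher level in the T48h rescue than in the T12h rescue, 0.64 ± 0.14 (edgeR adjusted p = 0.00208), was lost with limma on log2(FPKM + 1) without a filter (0.47, adjusted p = 0.0538).

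**Figure D5:**
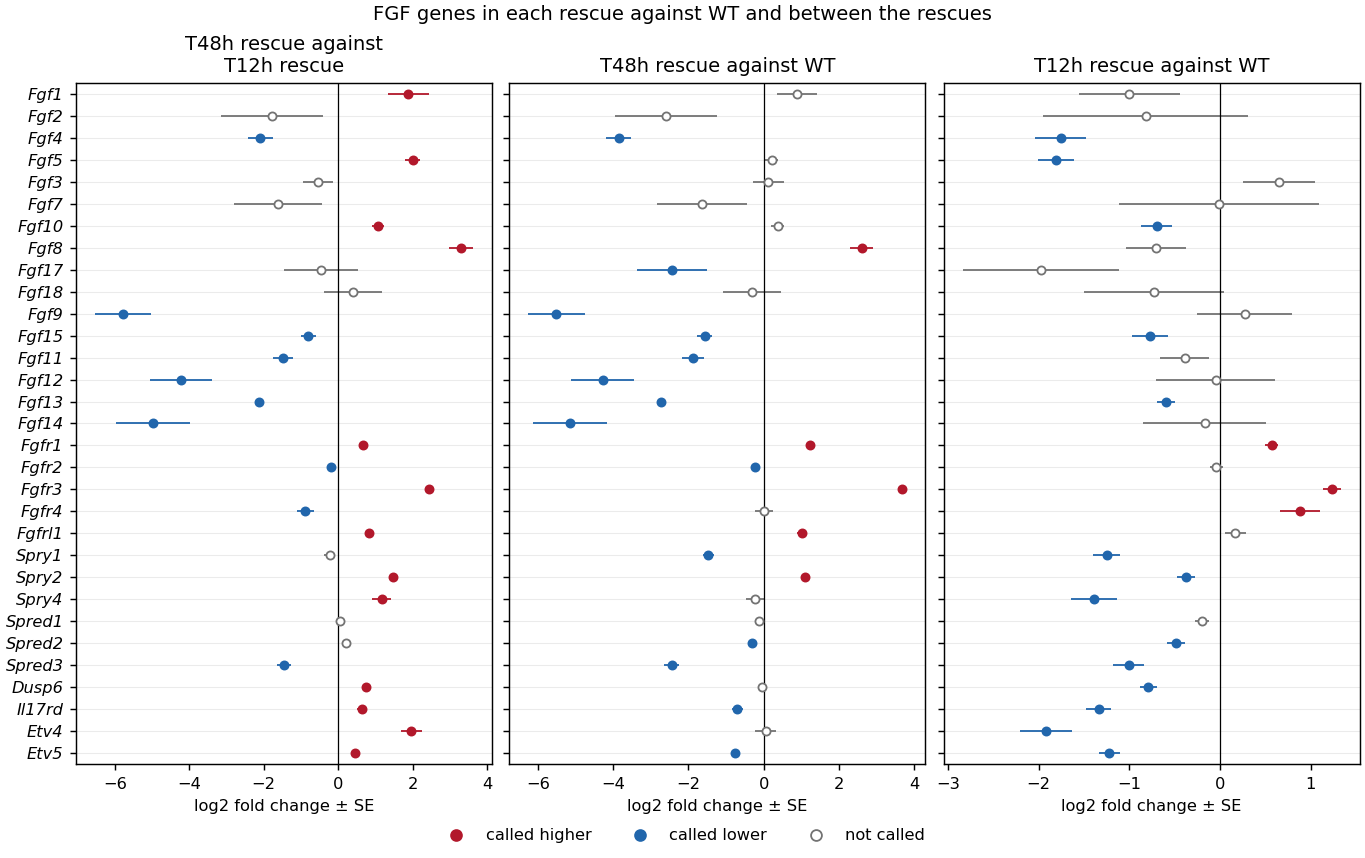
Log2 fold changes ± SE of 31 FGF genes for the T48h rescue over the T12h rescue, the T48h rescue over WT and the T12h rescue over WT, coloured by call as filled red for higher, filled blue for lower and open for not called; Fgf6 and Fgf16 are left out. In the T12h rescue over WT the 7 called feedback inhibitors, Etv4 and Etv5 lie left of 0, and in the T48h rescue over the T12h rescue Spry2, Spry4, Dusp6, Il17rd, Etv4 and Etv5 lie right of 0 while Spred3 and the 4 FGF-homologous factors lie left of it.

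Other genes of the pathway were counted by list. The shares of all genes called, to be read beside these counts, were 31.7% higher and 32.4% lower in the KO against WT, 34.2% and 33.2% in the T48h rescue against the KO, 32.8% and 32.1% in the T12h rescue against the KO, 23.9% and 23.4% in the T48h rescue against WT and 7.90% and 6.11% in the T12h rescue against WT. Of the 8 tested co-receptors and binding proteins, 3 rose and 3 fell in the KO against WT, beside 64.1% of all genes called, with a median log2 fold change of 0.07. The largest values were in carriers of secreted FGFs. Fgfbp1 read 0.572 and 0.221 CPM in the T48h rescue, 0.592 and 0.617 in the T12h rescue, 77.8 and 78.4 in the KO and 2.39 and 2.76 in WT, and Fgfbp3 read 3.62 and 4.46 CPM in the T48h rescue, 26.9 and 26.6 in the T12h rescue, 1.93 and 2.13 in the KO and 31.3 and 29.9 in WT. Compared with WT, the KO gave a log2 change of 4.92 ± 0.21 (edgeR adjusted p = 4.3e-10) in Fgfbp1 and -3.92 ± 0.18 (edgeR adjusted p = 6.98e-10) in Fgfbp3. Klb, the co-receptor for FGF15, read 5.86 and 6.15 CPM in the T48h rescue, 10.4 and 13.7 in the T12h rescue, 57.2 and 58.1 in the KO and 8.07 and 9.65 in WT, with 2.70 ± 0.17 (edgeR adjusted p = 1.28e-08) for the KO over WT. In the T48h rescue against WT 7 of the 8 fell and 1 rose, with a median of -1.24, and in the T12h rescue against WT 1 fell. Against the KO, 2 rose and 4 fell in the T48h rescue and 4 rose and 3 fell in the T12h rescue.

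Heparan sulfate is the cofactor that joins ligand and receptor. Of 12 heparan sulfate core proteins, 2 rose and 8 fell in the KO against WT, beside 31.7% and 32.4% of all genes, with a median log2 fold change of -0.70. Those that rose were the syndecan Sdc4, with 2.34 ± 0.08 (edgeR adjusted p = 4.07e-11), and the basement membrane proteoglycan Hspg2, with 2.10 ± 0.09 (edgeR adjusted p = 4.28e-10). Sdc2 fell with -1.84 ± 0.13 (edgeR adjusted p = 6.21e-08) and the glypican Gpc1 with -1.17 ± 0.09 (edgeR adjusted p = 9.5e-08). Over the KO, 7 rose and 4 fell in the T48h rescue, and 8 rose and 2 fell in the T12h rescue. Against WT, 6 rose and 3 fell in the T48h rescue, where Gpc3 gave 2.07 ± 0.07 (edgeR adjusted p = 4.84e-11) and Gpc4 gave -3.81 ± 0.14 (edgeR adjusted p = 7.44e-11). In the T12h rescue against WT 1 rose, Gpc4, and none fell.

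Of 16 tested heparan sulfate enzymes, 5 rose and 7 fell in the KO against WT, near the shares of all genes (31.7% and 32.4%), with a median log2 fold change of -0.29. Hs3st1, a sulfotransferase, gave 1.89 ± 0.10 (edgeR adjusted p = 3.53e-09) and Ndst1, which starts sulfation of the chain, gave -1.25 ± 0.08 (edgeR adjusted p = 2.26e-08). Hs3st1 read 5.34 and 5.66 CPM in the T48h rescue, 40.1 and 43.8 in the T12h rescue, 101 and 109 in the KO and 27.6 and 28.8 in WT. In the T48h rescue 4 rose and 5 fell against WT, and 9 rose and 3 fell against the KO. In the T12h rescue 3 rose and 1 fell against WT, and 8 rose and 6 fell against the KO.

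For the relay from receptor to ERK, transcript levels of 24 genes were measured, and the activity of the cascade was not. Of these adaptor and Ras-ERK genes, 9 rose and 11 fell in the KO against WT, beside 31.7% and 32.4% of all genes, with a median log2 fold change of -0.16. The docking protein Gab1 gave 1.27 ± 0.07 (edgeR adjusted p = 5.04e-09) and the exchange factor Sos2 gave -1.74 ± 0.10 (edgeR adjusted p = 7.32e-09). In the T48h rescue 11 rose and none fell against WT, beside 23.9% and 23.4% of all genes, with a median of 0.20, beside -0.039 over all genes. Among them were Mapk3 (ERK1), with 1.14 ± 0.08 (edgeR adjusted p = 4.14e-08), and the FGF receptor adaptor Frs2, with 1.17 ± 0.08 (edgeR adjusted p = 5.54e-08). In the T12h rescue 3 rose and none fell against WT. Against the KO, 15 rose and 5 fell in the T48h rescue, and 13 rose and 7 fell in the T12h rescue.

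Of 14 further ERK response genes and dual phosphatases, 7 rose and 3 fell in the KO against WT, beside 31.7% and 32.4% of all genes, with a median log2 fold change of 0.53. Dusp9, a phosphatase of ERK, read 114 and 121 CPM in the T48h rescue, 54.8 and 54.3 in the T12h rescue, 390 and 404 in the KO and 42.5 and 44.5 in WT, with 3.19 ± 0.08 (edgeR adjusted p = 4.15e-12) for the KO over WT. Dusp4 gave 1.45 ± 0.09 (edgeR adjusted p = 1.69e-08), while Phlda1 fell with -2.60 ± 0.10 (edgeR adjusted p = 1.72e-10). Etv1, the third factor of the Etv4 and Etv5 family, read 7.79 and 8.65 CPM in the T48h rescue, 1.17 and 1.74 in the T12h rescue, 10.6 and 10.4 in the KO and 6.07 and 4.63 in WT. It rose in the KO, with 0.97 ± 0.24 (edgeR adjusted p = 0.00364), and fell in the T12h rescue against WT, with -1.89 ± 0.27 (edgeR adjusted p = 0.000431). In the T48h rescue 5 rose and 5 fell against WT and 3 rose and 6 fell against the KO. In the T12h rescue 3 rose and 2 fell against WT and 4 rose and 9 fell against the KO.

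Markers of cell types moved with the groups. Pluripotency genes (7 of 7 at 1 CPM or more in every group) summed to 25.3 and 31 CPM in the T48h rescue, 42.9 and 42 in the T12h rescue, 714 and 718 in the KO and 144 and 162 in WT. Fgf4 had the same order of groups. Primitive streak genes summed to 21 and 27.8 CPM in the T48h rescue, 3 and 3.15 in the T12h rescue, 131 and 125 in the KO and 6.66 and 6.29 in WT. Of these 7 genes, 3 stood at 1 CPM or more in the T48h rescue, 0 in the T12h rescue, 4 in the KO and 2 in WT. Cardiac mesoderm genes summed to 2721 and 2639 CPM in the T48h rescue, against 91.2 and 105 in the T12h rescue, 231 and 242 in the KO and 74.7 and 78.3 in WT. Eye field genes summed to 21 and 19 CPM in the T48h rescue, 1646 and 1684 in the T12h rescue, 9.21 and 5.65 in the KO and 1445 and 1382 in WT, a split also seen in Fgf9, Fgf11 and Fgf12. Neural progenitor genes (6 of 6 at 1 CPM or more in every group) summed to 505 and 522 CPM in the T48h rescue, 1855 and 1937 in the T12h rescue, 447 and 425 in the KO and 1700 and 1696 in WT, also high in the T12h rescue and WT. Midbrain-hindbrain boundary genes summed to 10.9 and 11.1 CPM in the T48h rescue, 206 and 195 in the T12h rescue, 32.7 and 36.3 in the KO and 155 and 149 in WT. This sum does not describe the list. Of the 7 genes, 2 stood at 1 CPM or more in the T48h rescue, 2 in the T12h rescue, 4 in the KO and 5 in WT. In the T12h rescue 1 rose and 4 fell against WT, beside 7.90% and 6.11% of all genes, with a median log2 fold change of -3.14. Against the KO, 2 rose and 4 fell there, beside 32.8% and 32.1%. Fgf8, a ligand of that boundary, had the opposite split to the sum only.

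Some of the other lists were highest in the T48h rescue, as Fgfr1 and Fgfr3 were. Fibroblast feeder genes (3 of 6 at 1 CPM or more in every group) summed to 717 and 797 CPM in the T48h rescue, 123 and 95.9 in the T12h rescue, 18.9 and 16.6 in the KO and 66.3 and 66.3 in WT. Endothelium and blood genes (5 of 6 in every group) summed to 717 and 685 CPM in the T48h rescue, 150 and 141 in the T12h rescue, 145 and 131 in the KO and 101 and 97.7 in WT. Neural crest genes, 4 or 5 of 5 in each group, summed to 160 and 147 CPM in the T48h rescue and to between 23.4 and 43 CPM in the other libraries. Trophoblast genes had high sums in both the T48h rescue and the KO, with 450 and 415 CPM in the T48h rescue, 45 and 48.9 in the T12h rescue, 297 and 312 in the KO and 49.5 and 42.7 in WT. Gene by gene the list was split in the T48h rescue: 3 rose and 3 fell against WT, beside 23.9% and 23.4% of all genes. Against the KO, 2 rose and 3 fell there, beside 34.2% and 33.2%. In the KO against WT 5 rose and 0 fell, beside 31.7% and 32.4%. Of those 6 genes, 4 stood at 1 CPM or more in the T48h rescue, 3 in the T12h rescue, 5 in the KO and 4 in WT. Endoderm genes, 5 or 6 of 6 in each group, had their highest sum in the KO, where Fgfr4 was highest too. They summed to 420 and 467 CPM in the T48h rescue, 185 and 229 in the T12h rescue, 574 and 572 in the KO and 260 and 270 in WT. Of the 6 genes, 4 rose and 2 fell in the KO against WT, beside 31.7% and 32.4% of all genes. Postmitotic neuron genes summed to 39.8 and 33.5 CPM in the T48h rescue, 49.8 and 47.2 in the T12h rescue, 153 and 152 in the KO and 59.1 and 57.2 in WT. Paraxial mesoderm genes summed to no more than 8.21 CPM in any library. The part of cell composition in the FGF results was not tested.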

How the data were processed

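TruSeq libraries of 16 samples were sequenced, as the labels' protocols state. The processing notes of the submitters name Cufflinks 2.2.1, TopHat2 2.1.1, SAMtools 1.5, deepTools and mm10. For annotation and strand setting nothing was given in the sources used here, and reads of genes that overlap on exons (antisense transcripts at Fgf10, Fgf14, Fgf15 and Fgfr1, Nudt6 at Fgf2, Ctbp2 at Fgfr2, G630022F23Rik at Fgfr3 and Gm42922 at Spry1) cannot be told apart. Per the file headers, the deposited tables hold estimated counts of fragments and FPKM per locus, and FPKM are adjusted for transcript length and library size. The estimated counts had been multiplied by 1 factor per column, seen in the values: 92.3% to 93.2% were whole multiples of a step of 0.63 to 1.29 within 0.02 fragments. The factor was divided out. The columns name the group but neither run nor duplicate, so technical columns were paired by a chi-square of counts within a group (1.60 to 1.83 per degree of freedom within pairs, 9.08 to 16.5 between), summed and rounded. Loci without a name, 5143 with 3.16% to 6.12% of the counts, and 8 marked as holding too many fragments were left out.

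The test was that of edgeR 4.0.16 under R 4.3.3 (TMM, filterByExpr, quasi-likelihood F-test, all 4 groups in 1 fit, 4 residual degrees of freedom, common biological coefficient of variation 12.6%), with Benjamini-Hochberg adjustment over 16130 genes. The SE was derived from the log2 fold change and its F. On simulated data the script recovered 75% of 2-fold and 96% of 4-fold changes in the comparison of KO and WT over 16130 genes. The simulation changed only a small part of the genes and gave all genes the same spread. Recovery with most genes changed, or at the spread of single genes, was not tested. FPKM were used to compare levels between genes and in limma 3.58.1 alternatives. Further alternatives were DESeq2 1.42.0, other scalings and leaving out each library. The 2-fold rule was added after seeing the data. Genes were given in full by rule: the 16 with the largest range of group means among those at 5 CPM or more in the highest group, and of the pathway lists up to 4 with the smallest adjusted p in a comparison. The other members were described by their values after these were seen. The members and lists were chosen with earlier results of these data known.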

Additional observations from a re-analysis of the deposited data

Results flagged for a closer look

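The effects of the rescues over the KO had opposite signs, each past the threshold, and differed from each other in 2 FGF genes. In Fgf9 the T48h rescue over the T12h rescue gave -5.78 ± 0.75 (edgeR adjusted p = 2.73e-05), from -7.41 without T48h replicate b to -5.11 without T48h replicate a. The libraries read 0.0272 and 0.147 CPM in the T48h rescue, 5.74 and 4.41 in the T12h rescue, 0.454 and 1.81 in the KO and 3.88 and 4.51 in WT. In Spry2 the T48h rescue over the T12h rescue gave 1.48 ± 0.10 (edgeR adjusted p = 4.47e-08), and the libraries read 63.1 and 60.7 CPM in the T48h rescue, 22.8 and 21.5 in the T12h rescue, 48.8 and 46.6 in the KO and 29 and 28.7 in WT. Groups of 2 libraries are too small for a check of single outlying libraries.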

How the results depend on the processing

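Of 134 FGF gene results called, 107 were called in every alternative that gave a value, and the other 27 are fragile in the ways given beside them or belong to genes under about 4 CPM. These results come from comparisons that share libraries. The matching share over all genes was not counted, so the FGF genes are not set apart from other genes by it. The fitted value of Fgf16 in the KO over WT, which depends on the prior count and is neither a measured fold nor a bound since WT had 0 counts, was 0.00 without KO replicate b, with the call lost, and up to 8.39 with another library left out. The number of FGF genes called in each direction stayed within 1.5 times in all 19 settings tried. Requiring at least a 2-fold change, a rule chosen after seeing the data, left 6 lower in the KO against WT (10 without it), 3 higher in the T48h rescue against the KO (6), 1 higher and 8 lower in the T12h rescue against WT (3 and 14) and 9 higher in the T48h against the T12h rescue (14). Over all genes, the T12h rescue against WT had 1275 higher and 986 lower. These counts were 822 and 614 with limma on log2(FPKM + 1) without a filter, 795 higher without chromosome 8, and 616 to 1411 higher and 454 to 1160 lower with 1 library left out, lowest without WT replicate a. The cause was not tested. With upper-quartile scaling the median log2 fold change of all genes was -0.15 in the T48h rescue over the KO (-0.003 as reported), -0.16 in the T48h rescue over WT (-0.039) and -0.12 in the T48h over the T12h rescue (-0.031), and without a filter it was -0.18 in the T48h rescue over the KO and -0.11 in the T12h rescue over the KO (-0.009). No paired analysis was possible because the columns carry no replicate number. Genes under 1 CPM are limited by depth: 3 counts correspond to 0.0439 to 0.089 CPM in a library.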
